A study of Mus musculus with 9 samples.

Results

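ATF4 and the unfolded protein response were followed through 33 mouse genes in cultured oligodendrocyte progenitor cells (OPCs), cells that divide and give rise to myelinating oligodendrocytes. The genes were taken by symbol from a table of 56980 gene identifiers, and each of the 33 had 1 identifier with counts and passed the filter on low counts. By role they were Atf4 itself, 16 ATF4 target genes, 6 chaperones of the endoplasmic reticulum (ER), 3 genes of ER-associated degradation, 5 sensor and transducer genes, and 2 subunits of the phosphatase that resets the response. The rule names the genes by their known roles and applies no threshold to measured values. The members and the further gene lists were nevertheless chosen with earlier results of these data known, which limits how their counts can be read.

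Polyadenylated RNA was sequenced in 9 libraries, 3 in each of 3 groups, and all of the cells were primary OPC lines of genotype Trp53 -/- kept with 10 ng/mL PDGF-AA in a defined medium that also held insulin, forskolin and N-acetylcysteine. BB-p53n EZH2i cells are labelled as expressing the PDGF receptor ligand PDGF-BB and received 5 µM tazemetostat, an inhibitor of the histone methyltransferase EZH2, for 48 hours. BB-p53n DMSO cells carry the same PDGF-BB label, with DMSO as vehicle. p53n cells are the controls without PDGF-BB, and their labels name no vehicle, so PDGF-BB and DMSO went together. The sources used here do not give the construct for PDGF-BB or the number of lines or animals behind a group, so a p-value reflects the spread of these libraries alone, which may be technical. Every group lacks p53 and receives PDGF-AA, so no comparison bears on either. The first question was what PDGF-BB changes in p53-null OPCs, and the second was what an EZH2 inhibitor changes once PDGF-BB is present.

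The integrated stress response lowers general translation when a kinase phosphorylates the initiation factor eIF2α, and the mRNA of the transcription factor ATF4 is then translated more. ATF4 switches on genes for amino acid uptake and synthesis and, when stress lasts, genes that promote cell death. One of the kinases, PERK, senses unfolded protein in the ER and acts beside the sensors IRE1α and ATF6, which raise ER chaperones and degradation factors. Another, GCN2, senses uncharged tRNA, so ATF4 targets can move without the chaperones. Only transcript levels were measured here, and neither eIF2α phosphorylation nor ATF4 protein was.

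The promoters of these genes carry short elements that mark the different branches, and examples from the genes described below are printed for that reason. RefSeq promoter windows (build GRCm38.p6, 250 bases before to 50 after each start) matched 30 of the 33 genes by symbol, in 34 windows, and Slc7a5, Atf6 and Ppp1r15b were not among them. Both strands were searched. The core of the C/EBP-ATF response element that ATF4 binds, TGATGNAA, was in the windows of 7 of 15 ATF4 target genes with a window (Atf3, Trib3, Chac1, Asns, Slc7a11, Nupr1 and Vldlr), against 3.97% of all 32851 windows. It was in none of the 6 ER chaperone genes. The ER stress response element (CCAAT, 9 bases, CCACG) was in 4 of the 6 ER chaperone genes (Hspa5, Hsp90b1, Calr and Canx), in none of the ATF4 target genes, and in 0.119% of all windows. ERSE-II (ATTGG, 1 base, CCACG) was in Herpud1, which also held the ATF4 core, and in 0.0365% of all windows. The UPR element TGACGTGG was in no member's window and in 0.676% of all windows. No motif overlapped another in these genes. A match describes the letters of the window and shows no binding.

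The stretches below run 5′ to 3′ on the strand of the gene over the 250 bases before the start, with the matched elements in capitals. Asns and Chac1 were chosen as ATF4 targets that rose under PDGF-BB, and Slc7a11 as a target that fell. Hspa5, Hsp90b1, Canx and Calr were chosen as the chaperones with an ER stress response element. In Asns (chr6:7693210-7693459, minus strand) the core lay at -23 to -16 from the start, in Chac1 (chr2:119350992-119351241, plus strand) at -193 to -186, and in Slc7a11 (chr3:50443614-50443863, minus strand) at -66 to -59 and -47 to -40. In Hspa5 (chr2:34771840-34772089, plus strand) the element lay at -65 to -47, in Hsp90b1 (chr10:86705445-86705694, minus strand) at -212 to -194 and -107 to -89, in Canx (chr11:50325674-50325923, minus strand) at -145 to -127, and in Calr (chr8:84846932-84847181, minus strand) at -162 to -144.
Asns: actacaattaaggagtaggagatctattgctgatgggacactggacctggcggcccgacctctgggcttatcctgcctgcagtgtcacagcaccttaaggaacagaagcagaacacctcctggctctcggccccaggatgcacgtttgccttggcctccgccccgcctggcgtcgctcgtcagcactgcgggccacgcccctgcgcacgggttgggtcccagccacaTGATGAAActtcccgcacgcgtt
Chac1: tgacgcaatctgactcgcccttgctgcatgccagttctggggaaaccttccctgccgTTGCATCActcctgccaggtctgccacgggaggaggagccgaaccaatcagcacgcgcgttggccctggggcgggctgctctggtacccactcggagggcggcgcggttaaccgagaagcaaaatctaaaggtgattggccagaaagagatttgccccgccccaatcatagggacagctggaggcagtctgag
Slc7a11: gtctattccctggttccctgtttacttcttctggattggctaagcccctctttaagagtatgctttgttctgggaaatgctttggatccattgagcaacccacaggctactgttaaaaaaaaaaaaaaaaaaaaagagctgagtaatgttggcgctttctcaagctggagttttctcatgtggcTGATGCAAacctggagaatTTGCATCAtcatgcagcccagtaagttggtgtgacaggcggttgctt
Hspa5: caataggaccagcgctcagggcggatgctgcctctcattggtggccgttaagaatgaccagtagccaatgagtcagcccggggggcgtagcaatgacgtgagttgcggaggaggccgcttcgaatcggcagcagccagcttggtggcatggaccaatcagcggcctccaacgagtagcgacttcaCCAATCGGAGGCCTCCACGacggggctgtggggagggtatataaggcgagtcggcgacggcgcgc
Hsp90b1: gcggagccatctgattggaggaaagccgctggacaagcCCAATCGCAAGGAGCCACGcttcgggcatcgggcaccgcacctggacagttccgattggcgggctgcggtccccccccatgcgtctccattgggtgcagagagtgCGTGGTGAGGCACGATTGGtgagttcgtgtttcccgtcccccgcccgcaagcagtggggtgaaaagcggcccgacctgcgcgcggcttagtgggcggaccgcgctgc
Canx: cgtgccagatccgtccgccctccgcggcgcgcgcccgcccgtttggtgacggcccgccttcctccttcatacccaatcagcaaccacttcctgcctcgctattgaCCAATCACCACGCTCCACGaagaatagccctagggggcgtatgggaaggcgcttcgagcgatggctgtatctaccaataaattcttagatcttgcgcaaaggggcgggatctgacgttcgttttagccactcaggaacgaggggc
Calr: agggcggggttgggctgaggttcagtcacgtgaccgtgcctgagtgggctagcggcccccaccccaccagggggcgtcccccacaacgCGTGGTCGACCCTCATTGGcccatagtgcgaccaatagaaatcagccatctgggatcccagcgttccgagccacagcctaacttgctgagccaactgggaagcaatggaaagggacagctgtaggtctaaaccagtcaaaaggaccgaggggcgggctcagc

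Total counts ranged from 19471768 to 34557109 per library. Levels below are TMM-scaled CPM, counts relative to the scaled library size, and their precision is that of 3 libraries a group. Mitochondrial genes took 1.34 to 1.54% of counts in BB-p53n EZH2i, 2.44 to 2.62% in BB-p53n DMSO and 4.46 to 5.76% in p53n. Pdgfb received 3 to 6 counts per library in BB-p53n EZH2i, 4 to 8 in BB-p53n DMSO and 0 to 1 in p53n, so this gene does not bear out the PDGF-BB label, and it is not known if transcripts of the construct would count there. Ezh2 was at 107 to 116 CPM in BB-p53n EZH2i, 170 to 173 CPM in BB-p53n DMSO and 110 to 116 CPM in p53n. Trp53 was at 12 to 14.9 CPM in BB-p53n DMSO and 6.77 to 8.33 CPM in p53n. The lines also differed in sex-linked genes: Xist was at 2.82 to 17.4 CPM in BB-p53n EZH2i, 46.2 to 65 CPM in BB-p53n DMSO and 2780 to 3100 CPM in p53n, and Ddx3y, a Y-linked gene, was at 5.86 to 13.2 CPM in BB-p53n EZH2i, 43 to 53.6 CPM in BB-p53n DMSO and 0.208 to 0.715 CPM in p53n. Sex of the cells and PDGF-BB cannot be told apart, and the ranges of both genes also lay apart between the inhibitor and vehicle libraries. All 12 OPC markers exceeded 1 CPM in each group, summing to 5034 to 5344 CPM in BB-p53n EZH2i, 7200 to 7244 in BB-p53n DMSO and 9399 to 9936 in p53n, but Sox10 was at only 1.87 to 2.40 CPM in p53n, and Gpr17 averaged 57.8 CPM in BB-p53n EZH2i, 132 in BB-p53n DMSO and 1904 in p53n. Of the 12 OPC markers, 4 were called higher and 7 lower in BB-p53n DMSO than in p53n. For the inhibitor against DMSO, 4 were called higher and 6 lower, so the sum does not describe each marker. Cspg4, for one, averaged 677 CPM in BB-p53n EZH2i, 509 in BB-p53n DMSO and 287 in p53n. The 10 astrocyte markers summed to 1259 to 1383 CPM in BB-p53n EZH2i, 1173 to 1201 in BB-p53n DMSO and 1905 to 2094 in p53n. All 10 were lower in BB-p53n DMSO than in p53n, with a median log2 fold change of -2.84 and a range from -5.89 for Aqp4 to -0.35 for Aldoc. The 8 neuron markers summed to 558 to 682 CPM in BB-p53n EZH2i, 1658 to 1809 in BB-p53n DMSO and 2021 to 2050 in p53n. Map2 and Dcx made up most of that sum, which does not describe each marker. Of 7 tested, 1 was called higher and 4 lower for PDGF-BB, and 3 higher (Rbfox3, Tubb3 and Slc17a7) and 4 lower for the inhibitor. Over all genes tested 35.3% were higher and 34% lower for PDGF-BB, and 37.3% and 35.6% for the inhibitor. The 6 microglia markers stayed under 3 CPM in sum, with C1qa at 0 counts. The 10 endothelial, mural and fibroblast markers summed to between 16.8 and 24.2 CPM over all libraries. The part of these shifts in the results was not tested, and fewer cells of a type cannot be told apart from less RNA per cell.

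PDGF-BB cells had more ATF4 transcript and more transcript of most ATF4 targets than p53n cells. Atf4 (GRCm39, chr15:80139385-80141742) was at 394, 373 and 391 CPM in BB-p53n DMSO, against 145, 147 and 168 CPM in p53n. Even the lowest PDGF-BB library had over 2 times the level of the highest p53n library, with a log2 fold change of 1.33 (SE 0.07, adjusted p = 1.1e-12). Of the 16 ATF4 target genes, 14 rose and 2 fell, where 35.3% of the 17001 genes tested rose and 34% fell. The median log2 fold change of the targets was 1.37, beside -0.02 over all genes tested. Groups did not overlap in 76.1% of all genes tested, so a gap between the groups is the common case for a gene here. All adjusted p-values are Benjamini-Hochberg values of edgeR's quasi-likelihood test over all genes tested, with a threshold of 0.05.

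The 7 transcription factor and regulator genes among the targets all rose. Ddit3, which encodes the pro-death factor CHOP, was at 33.4, 35.6 and 33.1 CPM in BB-p53n DMSO and 8.57, 10.2 and 10.8 CPM in p53n (log2 fold change 1.79, SE 0.11, adjusted p = 1.1e-11). Trib3, a pseudokinase that dampens ATF4 and CHOP activity, was at 19.0, 18.3 and 19.99 CPM in BB-p53n DMSO, against 2.36, 4.37 and 3.45 CPM in p53n (2.51, SE 0.15, adjusted p = 2.2e-11). The ranges of the groups lay far apart for both genes. Atf5, a related bZIP factor gene, rose by a log2 fold change of 1.60 (SE 0.13), Atf3, an early stress-induced repressor and activator, by 1.56 (SE 0.20), and Nupr1, a small stress-induced nuclear protein gene, by 0.65 (SE 0.17). Cebpb, a partner of ATF4, showed the widest rise among the members, at 4.33, 3.94 and 4.38 CPM in BB-p53n DMSO and 0.73, 0.50 and 0.42 CPM in p53n (2.90, SE 0.23, adjusted p = 4.8e-10). Its level was low, and 20.7% of its exon bases overlap Tmem189 on the other strand, whose reads the unstranded counting cannot separate. Cebpg, another C/EBP partner, rose by 0.64 (SE 0.09).

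Transporters and enzymes of amino acid supply formed another set of ATF4 targets. Slc7a5 and Slc3a2 encode the light and heavy chains of the large neutral amino acid transporter. Slc7a5 was at 325, 314 and 332 CPM in BB-p53n DMSO and 95.7, 107.9 and 96.2 CPM in p53n (log2 fold change 1.70, SE 0.09, adjusted p = 6.6e-13). Slc3a2 was at 156, 166 and 166 CPM in BB-p53n DMSO, against 95.9, 100 and 88.8 CPM in p53n (0.78, SE 0.07, adjusted p = 6.4e-09). Both chains rose without overlap between the groups, the light chain by more. Slc7a1, the transporter of arginine and lysine, was at 305, 314 and 307 CPM in BB-p53n DMSO and 75.5, 99.3 and 82.3 CPM in p53n (1.85, SE 0.08, adjusted p = 5.3e-14). Asns, asparagine synthetase (chr6:7675169-7693254 in GRCm39), was at 221, 223 and 236 CPM in BB-p53n DMSO, against 97.3, 95.8 and 91.8 CPM in p53n (1.25, SE 0.07, adjusted p = 3.3e-12). Asns varied little within either group. Chac1, an enzyme that degrades glutathione, was at 12.5, 9.33 and 10.2 CPM in BB-p53n DMSO and 3.09, 4.41 and 4.00 CPM in p53n (1.49, SE 0.15). Vldlr, a lipoprotein receptor, rose by 0.89 (SE 0.08) and Sesn2, a leucine-sensing inhibitor of mTORC1, by 0.32 (SE 0.08).

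The 2 ATF4 targets that fell were Slc7a11 and Ddit4. Slc7a11, the cystine carrier that pairs with Slc3a2, was at 11.9, 10.6 and 10.95 CPM in BB-p53n DMSO and 19.8, 22.8 and 21.2 CPM in p53n, and fell by 0.93 on the log2 scale (SE 0.11, adjusted p = 1.9e-07). Ddit4, which encodes the mTORC1 inhibitor REDD1, was at 32.6, 34.6 and 30.4 CPM in BB-p53n DMSO, against 83.0, 92.8 and 93.6 CPM in p53n, and fell by 1.46 (SE 0.11, adjusted p = 2.4e-09). Every PDGF-BB library was below every p53n library for both genes. The stretch of Slc7a11 printed above holds the ATF4 core at 2 places.

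**Figure D1:**
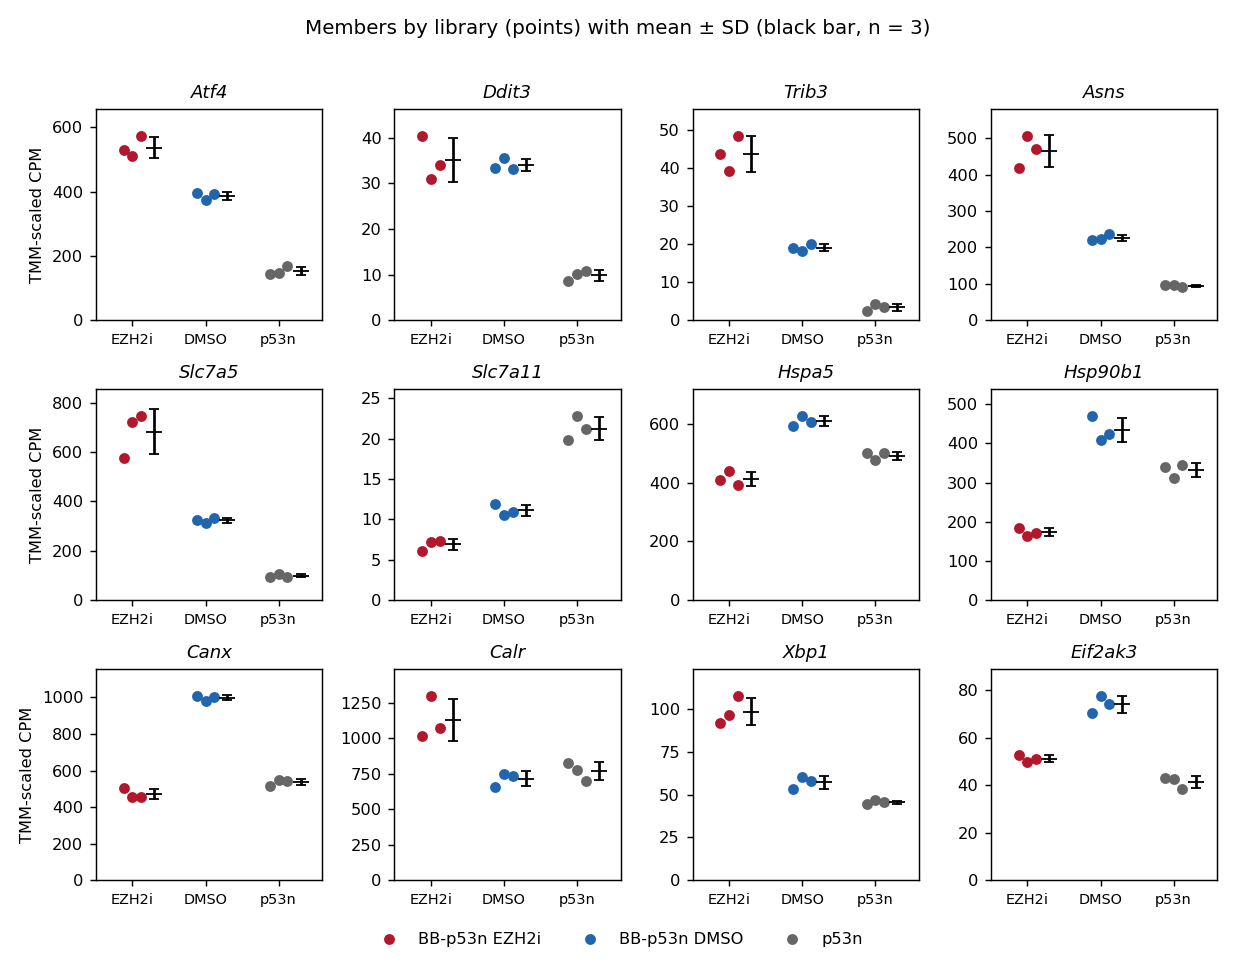
Levels of 12 members in each library, in TMM-scaled CPM on a linear axis from 0, for BB-p53n EZH2i, BB-p53n DMSO and p53n cells, with mean ± SD of 3 libraries as black bars. With no correction for GC content or length, Atf4, Trib3, Asns and Slc7a5 are highest in EZH2i and lowest in p53n, Slc7a11 is the reverse, and Hspa5, Hsp90b1, Canx and Eif2ak3 are highest in BB-p53n DMSO; the steps of Atf4 and Slc7a11 between EZH2i and DMSO change sign once the GC and length trend is removed.

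Of the 6 ER chaperones 4 rose and 1 fell under PDGF-BB, where 35.3% of all genes tested rose and 34% fell. Their median log2 fold change was 0.35, beside 1.37 for the ATF4 targets. Canx, the membrane-bound lectin chaperone calnexin, was at 1006, 981 and 1004 CPM in BB-p53n DMSO and 518, 549 and 540 CPM in p53n (log2 fold change 0.90, SE 0.07, adjusted p = 1.2e-10). Hspa5 (GRCm39, chr2:34661982-34667559), which encodes the main Hsp70 chaperone BiP of the ER, was at 592, 626 and 607 CPM in BB-p53n DMSO, against 500, 476 and 499 CPM in p53n (0.31, SE 0.06, adjusted p = 2.5e-04). BiP transcript was thus above every p53n library, by a smaller step than that of Canx. Hsp90b1, the ER Hsp90 chaperone gene, was at 469, 410 and 423 CPM in BB-p53n DMSO and 339, 313 and 345 CPM in p53n (0.39, SE 0.07), and 10.3% of its exon bases overlap a gene on the other strand. Pdia4, a disulfide isomerase gene, rose by 0.68 (SE 0.07). Dnajb9, a co-chaperone of BiP that IRE1 and XBP1 induce, was at 22.04, 22.56 and 22.36 CPM in BB-p53n DMSO, against 32.2, 28.5 and 31.2 CPM in p53n, and fell by 0.46 (SE 0.09, adjusted p = 2.0e-04). Calr, the soluble lectin chaperone calreticulin, was at 658, 752 and 738 CPM in BB-p53n DMSO and 824, 780 and 701 CPM in p53n, with overlapping groups and adjusted p = 0.31.

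Among the ER-associated degradation genes, 2 of 3 rose, where 35.3% of all genes tested rose and 34% fell. Edem1, which directs misfolded glycoproteins out of the folding cycle, was at 60.4, 59.5 and 59.3 CPM in BB-p53n DMSO and 28.5, 28.1 and 28.4 CPM in p53n (log2 fold change 1.08, SE 0.08, adjusted p = 8.8e-11). Its libraries nearly coincided within each group. Herpud1, a membrane component of the degradation complex, rose by 0.50 (SE 0.09), and Sel1l, the adaptor of the ubiquitin ligase HRD1, was at 220, 234 and 237 CPM in BB-p53n DMSO, against 215, 222 and 198 CPM in p53n (adjusted p = 0.19). Counted with the chaperones, 6 of these 9 genes rose and 1 fell, and their median was 0.39.

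The sensors moved apart from each other. Eif2ak3, which encodes PERK, was at 70.5, 77.5 and 74.1 CPM in BB-p53n DMSO and 43.2, 42.6 and 38.6 CPM in p53n (log2 fold change 0.84, SE 0.07, adjusted p = 3.1e-09). Eif2ak4, which encodes GCN2, was at 38.3, 31.7 and 35.2 CPM in BB-p53n DMSO, against 35.4, 35.6 and 31.3 CPM in p53n, with overlapping groups and adjusted p = 0.71. Xbp1, the transcript that IRE1α splices, was at 53.1, 60.3 and 58.0 CPM in BB-p53n DMSO and 44.8, 46.6 and 45.5 CPM in p53n (0.32, SE 0.08, adjusted p = 9.1e-04), and gene counts do not show its splicing. Ern1, which encodes IRE1α, was called higher at 0.24 (SE 0.10, adjusted p = 0.030) and Atf6 was called lower at -0.16 (SE 0.07, adjusted p = 0.044). Both were the weakest calls: Atf6 lost its call without any single one of the 6 libraries, and Ern1 with DESeq2 size factors (adjusted p = 0.053). The phosphatase subunit genes Ppp1r15a, which is induced by stress, and Ppp1r15b, which is constitutive, rose by 0.42 (SE 0.11) and 0.57 (SE 0.06).

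Over all genes tested 35.3% rose and 34% fell in BB-p53n DMSO against p53n. Among all members 26 rose, 4 fell and 3 were not called in this comparison. Across 12786 genes these fold changes were weakly related to transcript GC content and exon length (Spearman rho of 0.14 with GC content and -0.07 with length, across genes, which are not independent replicates). With a fitted GC and length trend taken out of each library, 24 members rose and 5 fell, where 32.3% of 16652 genes rose and 39.8% fell. Atf4 then had a log2 fold change of 1.17 (SE 0.07), the same 14 and 2 ATF4 targets were counted, and their median was 1.20. Xbp1 (0.14, adjusted p = 0.054) and Ern1 (0.07, adjusted p = 0.50) lost their calls, and Calr was called lower (-0.31, adjusted p = 0.0014).

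**Figure D2:**
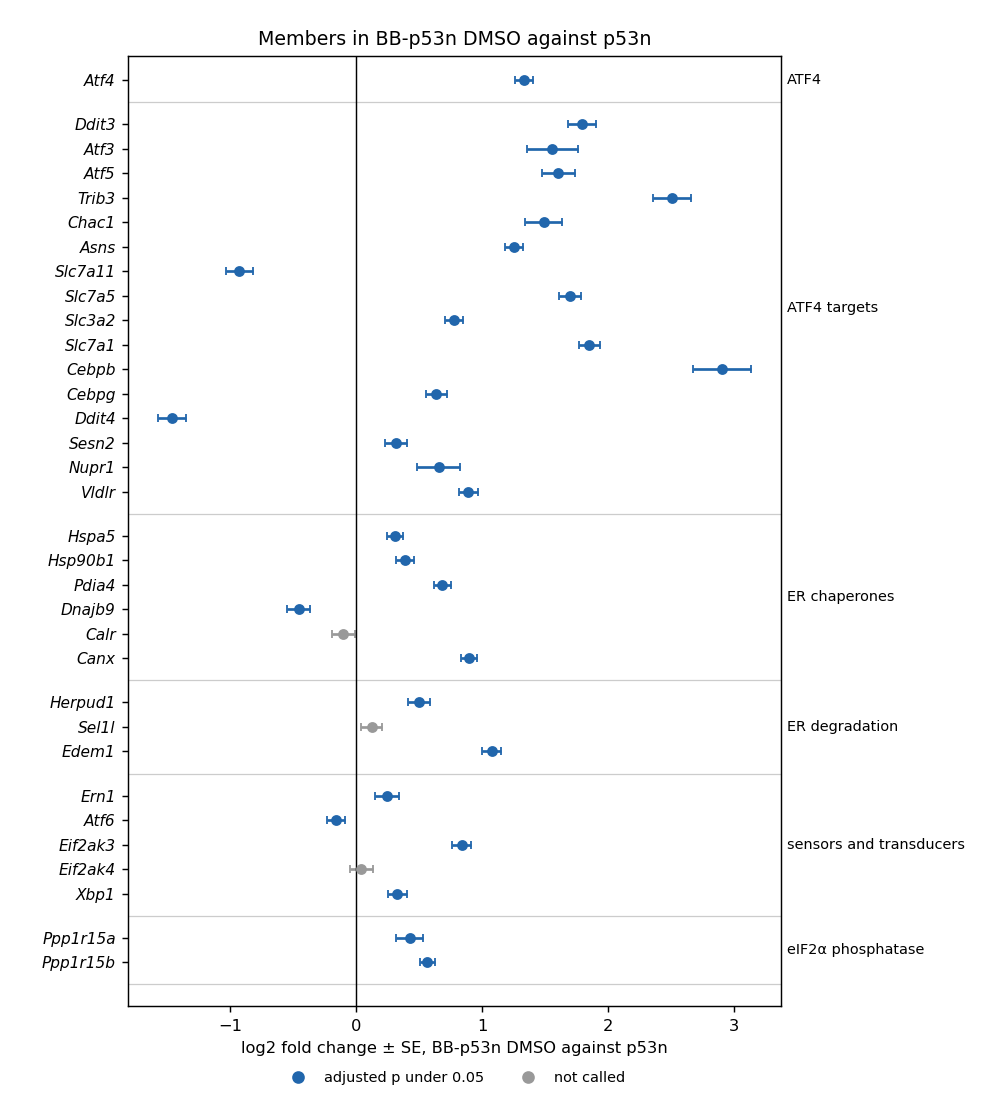
Log2 fold change of each of the 33 members in BB-p53n DMSO against p53n with its SE, grouped by role, with members past an adjusted p of 0.05 in blue and the other 3 (Calr, Sel1l and Eif2ak4) in grey. The ATF4 targets run from -1.46 for Ddit4 to 2.90 for Cebpb, and the ER chaperones from -0.46 for Dnajb9 to 0.90 for Canx.

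Neighbouring genes of the same pathways, none of them members, gave the setting, and each count can be read beside the 35.3% of all genes that rose and the 34% that fell. Of 22 tested further ATF4 targets, out of 24 listed, 18 rose and 2 fell in BB-p53n DMSO (median log2 fold change 0.70), where the mitochondrial one-carbon enzymes Mthfd2 (2.65, SE 0.08) and Shmt2 (1.96, SE 0.07) had the smallest adjusted p, while the alanine aminotransferase gene Gpt2 fell by 1.498 (SE 0.07) and Ero1a, an ER oxidase gene, by 0.25 (SE 0.10). Of 15 further ER chaperone and folding genes, 10 rose and 1 fell (median 0.48), with the disulfide isomerase P4hb at 1.23 and the chaperone Hyou1 at 0.91, and Dnajc3, an inhibitor of PERK, fell by 0.49. Of 13 further degradation and translocation genes, 7 rose and 2 fell (median 0.26), with Sec24d at 1.26, Ssr1 at 0.88, Erlec1 at -0.62 and Edem2 at -0.49. The 12 genes of eIF2, its exchange factor and its other kinases had 5 higher and 1 lower (median 0.04), with the GCN2 activator Gcn1 at 0.69, Eif2s1 at 0.56 and Impact, a GCN2 inhibitor, at -0.42. Other stress programs were counted too: 5 rose and 1 fell of 8 tested cytosolic heat shock genes (Dnajb1 at 0.95, Hspa4 at 0.74 and Hspa1a, nearly identical to Hspa1b and so uncertain, at -0.89), 6 rose and 1 fell of 8 mitochondrial chaperone and protease genes (Hspd1 at 1.03, Hspa9 at 0.83 and Clpx at -0.27), and 8 rose and 1 fell of 10 NRF2 targets (Gsr at 1.68, Hmox1 at 0.86 and G6pdx at -0.39). These medians can be read beside 1.37 for the ATF4 target members and 0.35 for the ER chaperone members.

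In the second comparison tazemetostat was set against DMSO in PDGF-BB cells, and the 2 member lists parted on the CPM scale. In BB-p53n EZH2i, 10 of 16 ATF4 targets were higher and 3 lower, while 1 of 6 ER chaperones was higher and 4 were lower. Over all genes tested 37.3% were higher and 35.6% lower. The median log2 fold change was 0.74 for the ATF4 targets and -0.78 for the 6 ER chaperones, beside 0.02 over all genes. Groups did not overlap in 75.3% of all genes tested. The 15 further ER chaperone and folding genes did not follow the 6 members on this scale, with 9 higher, 4 lower and a median of 0.53. Both comparisons share the BB-p53n DMSO libraries, so a deviation in those libraries enters both with opposite sign.

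These values moved with base composition. Across 12786 genes the fold changes of BB-p53n EZH2i against BB-p53n DMSO followed transcript GC content with a Spearman rho of 0.73 and exon length with -0.43, and across the 33 members rho was 0.86 with GC content and -0.62 with length (descriptions across genes that share libraries). Median GC content was 52.8% for the ATF4 targets, 43.9% for the 6 ER chaperones and 49.4% over those 12786 genes. It was 50.5% for the 15 further ER chaperone and folding genes. After the trend was removed, 10 ATF4 targets were higher and 2 lower with a median of 0.27, and 1 ER chaperone was higher and 3 were lower with a median of -0.13. Over 16652 genes 28.7% were then higher and 29.2% lower, with a median of -0.01. Counting all members, 15 were higher and 13 lower before (37.3% and 35.6% of all genes), and 12 were higher and 8 lower after. Of the 18 members called in both fits, 14 had the same direction. The source of the relation to GC content was not tested, so both values are given for each gene that follows.

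**Figure D3:**
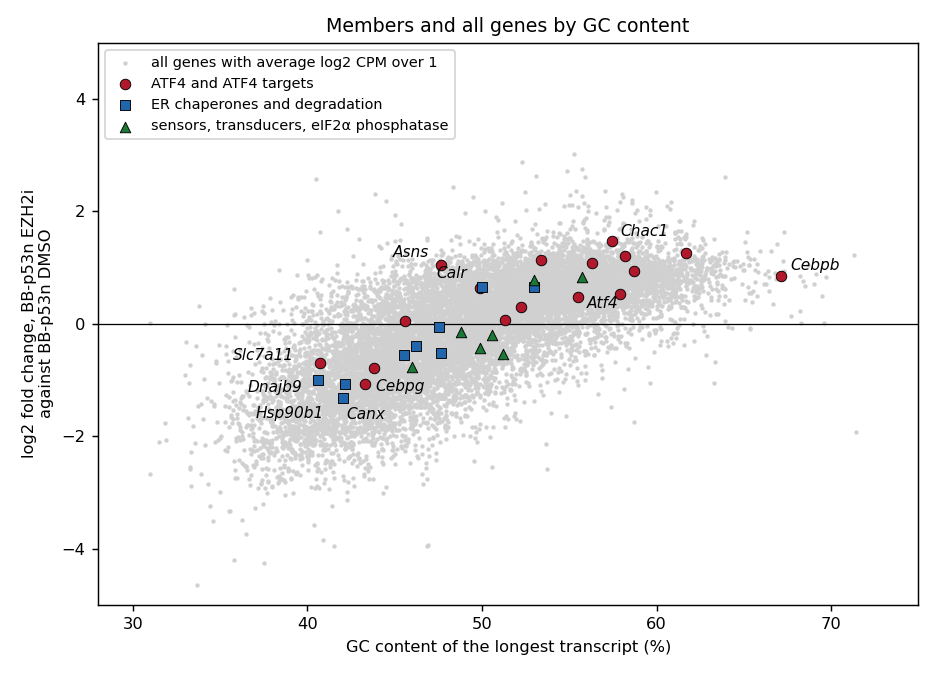
Log2 fold change in BB-p53n EZH2i against BB-p53n DMSO by the GC content (percent) of the longest transcript of a gene, with 12786 genes in grey (1 lies outside the axes) and the 33 members in colour by role. The cloud climbs from low to high GC content, the ER chaperones lie mostly left of 50% and below 0, the ATF4 targets mostly right of 50% and above 0, and Asns lies at 1.04 with a GC content of 47.7%.

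**Figure D4:**
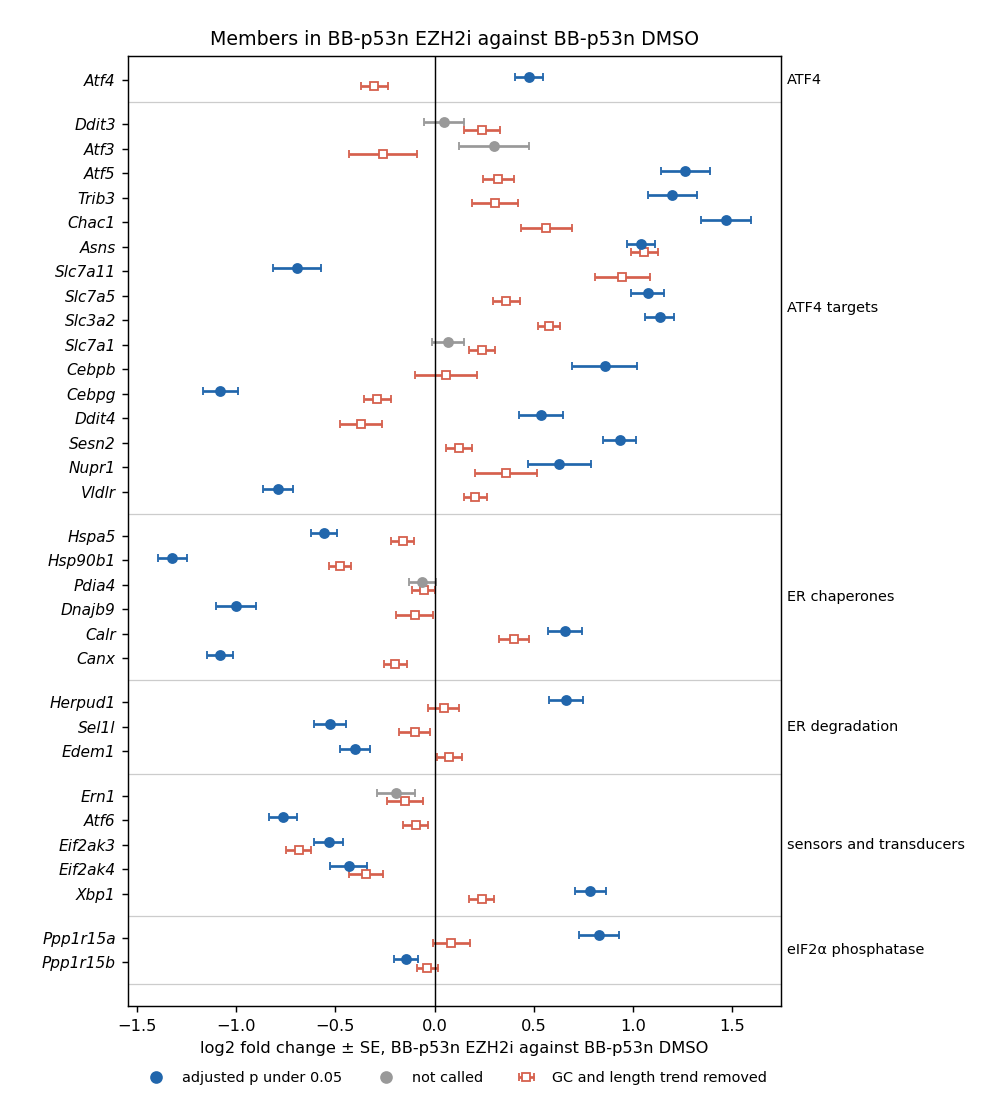
Log2 fold change of each of the 33 members in BB-p53n EZH2i against BB-p53n DMSO with its SE, before (filled circles) and after (open squares) removal of the GC and length trend. The 2 values lie close together for Asns, Eif2ak4 and the uncalled Pdia4 and Ern1. They lie on opposite sides of 0 for Atf4, Atf3, Slc7a11, Ddit4, Vldlr and Edem1.

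Atf4 itself depended on that step. It was at 529, 510 and 572 CPM in BB-p53n EZH2i and 394, 373 and 391 CPM in BB-p53n DMSO, a log2 fold change of 0.48 (SE 0.07, adjusted p = 3.9e-06) without overlap. After removal of the trend its value was -0.30 (SE 0.07, adjusted p = 6.3e-04). A direction for Atf4 transcript under tazemetostat is therefore not given here.

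Asns was the amino acid gene least touched by the step. It was at 418, 506 and 472 CPM in BB-p53n EZH2i and 221, 223 and 236 CPM in BB-p53n DMSO (a log2 fold change of 1.04, SE 0.07, adjusted p = 8.5e-11), and stood at 1.06 (SE 0.07, adjusted p = 2.4e-11) with the trend removed. The lowest inhibited library stood well above the highest DMSO library. The transporter chains also rose in both fits: Slc3a2 was at 325, 366 and 381 CPM in BB-p53n EZH2i, against 156, 166 and 166 CPM in BB-p53n DMSO (1.13, SE 0.07; 0.58 with the trend removed, adjusted p = 1.6e-08). Slc7a5 was at 577, 721 and 745 CPM in BB-p53n EZH2i and 325, 314 and 332 CPM in BB-p53n DMSO (1.07, SE 0.08; 0.36 with the trend removed, adjusted p = 7.2e-05). Chac1 was at 30.6, 26.7 and 31.2 CPM in BB-p53n EZH2i, against 12.5, 9.33 and 10.2 CPM in BB-p53n DMSO (1.47, SE 0.13; 0.56 with the trend removed, adjusted p = 7.3e-04). Groups did not overlap for these genes, and all but Asns shrank by more than 1.5 times on the log2 scale with the trend removed. Slc7a1 was at 311, 337 and 323 CPM in BB-p53n EZH2i and 305, 314 and 307 CPM in BB-p53n DMSO, with overlapping groups (0.07, adjusted p = 0.44), and was called higher at 0.24 with the trend removed.

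Slc7a11, Ddit4 and Vldlr turned round. Slc7a11, with a GC content of 40.7%, was at 6.14, 7.24 and 7.37 CPM in BB-p53n EZH2i and 11.9, 10.6 and 10.95 CPM in BB-p53n DMSO, a log2 fold change of -0.69 (SE 0.12, adjusted p = 2.7e-05), and had 0.95 (SE 0.14, adjusted p = 4.6e-06) with the trend removed. For Ddit4, with 57.9% GC, the levels were 48.8, 37.4 and 55.2 CPM in BB-p53n EZH2i, against 32.6, 34.6 and 30.4 CPM in BB-p53n DMSO, and the value of 0.54 (SE 0.11) became -0.37 (SE 0.11). Vldlr stood at 63.0, 52.5 and 56.0 CPM in BB-p53n EZH2i and 103, 94.2 and 98.8 CPM in BB-p53n DMSO, and -0.79 (SE 0.08) became 0.21 (SE 0.06). No direction is given for these genes either.

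The regulators Atf5 and Trib3 were higher in both fits. Trib3 was at 43.6, 39.1 and 48.4 CPM in BB-p53n EZH2i and 19.0, 18.3 and 19.99 CPM in BB-p53n DMSO (a log2 fold change of 1.20, SE 0.12; 0.31 with the trend removed, adjusted p = 0.029). Atf5 was at 202, 226 and 309 CPM in BB-p53n EZH2i, against 104, 105 and 97.3 CPM in BB-p53n DMSO (1.26, SE 0.12; 0.32 with the trend removed, adjusted p = 0.0017). Both of these GC-rich transcripts lost most of their fold change to the step. Ddit3 was at 40.4, 30.9 and 33.97 CPM in BB-p53n EZH2i and 33.4, 35.6 and 33.1 CPM in BB-p53n DMSO, with overlapping groups (0.05, adjusted p = 0.69), and was called at 0.24 with the trend removed (adjusted p = 0.026). Cebpg was lower in both fits, at 39.3, 31.0 and 39.5 CPM in BB-p53n EZH2i, against 81.6, 74.3 and 76.6 CPM in BB-p53n DMSO (-1.08, SE 0.09; -0.29 with the trend removed, adjusted p = 9.3e-04). The calls of Cebpb (0.86; 0.06 with the trend removed), Sesn2 (0.93; 0.12) and Nupr1 (0.63; 0.36) were lost, and Atf3 was called in neither fit (0.30, adjusted p = 0.14; -0.26, adjusted p = 0.21).

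Among the chaperones Hsp90b1, Canx and Hspa5 were lower and Calr was higher in both fits. Hsp90b1 (GRCm39, chr10:86526073-86541373) was at 185, 164 and 172 CPM in BB-p53n EZH2i and 469, 410 and 423 CPM in BB-p53n DMSO (a log2 fold change of -1.32, SE 0.07; -0.48 with the trend removed, adjusted p = 2.7e-07). Canx was at 503, 454 and 457 CPM in BB-p53n EZH2i, against 1006, 981 and 1004 CPM in BB-p53n DMSO (-1.08, SE 0.07; -0.20 with the trend removed, adjusted p = 0.0062). Hspa5 was at 409, 438 and 393 CPM in BB-p53n EZH2i and 592, 626 and 607 CPM in BB-p53n DMSO (-0.56, SE 0.06; -0.16 with the trend removed, adjusted p = 0.026). No inhibited library reached a DMSO library for these chaperones, whose fold changes on the log2 scale shrank by more than 2 times with the trend removed. Calr, the partner of Canx in glycoprotein folding, was at 1019, 1297 and 1071 CPM in BB-p53n EZH2i, against 658, 752 and 738 CPM in BB-p53n DMSO (0.66, SE 0.09; 0.40 with the trend removed, adjusted p = 1.7e-04). The 4 genes are those with an ER stress response element in the printed stretches, and they did not move in one direction. Dnajb9 was lower (-0.998, SE 0.10) with its call lost after removal of the trend (-0.10, adjusted p = 0.38), and Pdia4 was called in neither fit (-0.06; -0.05).

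Degradation genes had no call left with the trend removed. Herpud1 (0.66; 0.05 with the trend removed), Sel1l (-0.53; -0.10) and Edem1 (-0.40; 0.07) had adjusted p-values of 0.63, 0.29 and 0.32 there. Together with the chaperones, 2 of 9 genes were higher and 6 lower, with a median of -0.53, where 37.3% of all genes were higher and 35.6% lower. With the trend removed 1 of the 9 was higher and 3 were lower, with a median of -0.10. Over all genes 28.7% were then higher and 29.2% lower, so the lower count was close to that share.

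The genes of the eIF2α kinases PERK and GCN2 were lower in both fits, and Eif2ak1, which encodes the heme-regulated kinase HRI and is no member, was not (0.11, adjusted p = 0.17; 0.17 and called higher with the trend removed). Eif2ak3 was at 52.6, 49.6 and 51.2 CPM in BB-p53n EZH2i and 70.5, 77.5 and 74.1 CPM in BB-p53n DMSO (a log2 fold change of -0.53, SE 0.07; -0.68 with the trend removed, adjusted p = 7.0e-09). Eif2ak4 was at 27.9, 25.8 and 24.3 CPM in BB-p53n EZH2i, against 38.3, 31.7 and 35.2 CPM in BB-p53n DMSO (-0.43, SE 0.09; -0.35 with the trend removed, adjusted p = 0.0014). Neither group pair overlapped. Xbp1 was higher in both fits, at 91.5, 96.5 and 107 CPM in BB-p53n EZH2i and 53.1, 60.3 and 58.0 CPM in BB-p53n DMSO (0.79, SE 0.08; 0.24 with the trend removed, adjusted p = 0.0026). Atf6 (-0.76; -0.09 with the trend removed), Ppp1r15a (0.83; 0.09) and Ppp1r15b (-0.14; -0.04) lost their calls, and Ern1 had none in either fit (-0.19, adjusted p = 0.080; -0.15, adjusted p = 0.17).

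The counts of the further lists stand beside 37.3% of all genes higher and 35.6% lower (28.7% and 29.2% with the trend removed). Of the 22 further ATF4 targets tested, 18 were higher and 4 lower in BB-p53n EZH2i (median log2 fold change 0.75), and 14 were higher and 2 lower with the trend removed (median 0.33). The serine synthesis genes Psph (1.11; 1.03 with the trend removed) and Phgdh (1.40; 0.56) had the smallest adjusted p among those higher, and Aldh1l2, a mitochondrial folate enzyme gene (-0.90; -0.54), and Xpot, a tRNA export factor gene (-0.61; -0.20), were lower in both fits. Of the 15 further ER chaperone and folding genes, 9 were higher and 4 lower (6 and 5 with the trend removed). Their median was 0.53 (0.05 with the trend removed), where the 6 ER chaperone members had -0.78 (-0.13). Sdf2l1 (1.16; 0.22), Ppib (0.81; 0.59), Dnajc3 (-1.35; -0.58) and Dnajc10 (-0.72; -0.17) were among those called. Of the 13 further degradation and translocation genes, 6 were higher and 5 lower (5 and 4 with the trend removed), close to the shares over all genes, among them Edem2 (1.13; 0.57), Derl1 (0.55; 0.41) and Edem3 (-1.74; -0.93), while Ssr1 turned round (-0.68; 0.24). Of the 12 eIF2 and kinase genes, 5 were higher and 5 lower, but 10 and 2 with the trend removed. Eif2b2 (1.22; 0.43) and Eif2b4 (1.14; 0.33), subunits of the exchange factor, were higher in both fits, Eif2ak2, which encodes the double-stranded RNA sensor PKR, was lower in both (-1.70; -1.03), and Nck1, an adaptor gene, turned round (-0.96; 0.28).

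Other stress programs gave 4 higher and 3 lower of 8 tested cytosolic heat shock genes (2 and 2 with the trend removed), with Dnajb1 (0.73; 0.20) and Hspa8 (0.40; 0.76) higher and Hspa4 (-0.91; -0.54) and Hsp90aa1 (-1.45; -0.85) lower. Mitochondrial chaperones and proteases gave 5 higher and 3 lower of 8 (1 and 3 with the trend removed), with Hspe1 (0.79; 0.97) and its partner Hspd1 (-0.85; -0.74) called in opposite directions in both fits, Clpx (-0.79; -0.35) lower, and Clpp (0.95; -0.003) losing its call. NRF2 targets gave 5 higher and 3 lower of 10 (4 and 0 with the trend removed), with Hmox1 (1.13; 0.45) higher in both fits, G6pdx (0.63; 0.10) and Txnrd1 (-0.19; -0.09) losing their calls, and Me1 turned round (-0.28; 0.14).

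Per kilobase of exon, Calr had the highest level among the members in each group, at 392 CPM per kb in BB-p53n EZH2i, 249 in BB-p53n DMSO and 267 in p53n. Atf4 came next in BB-p53n EZH2i at 228 CPM per kb, stood behind Calr and Canx (213) in BB-p53n DMSO at 164, and behind Calr, Hspa5, Canx and Hsp90b1 in p53n at 65.1. At the low end was Slc7a11, at 0.50 CPM per kb in BB-p53n EZH2i, 0.80 in BB-p53n DMSO and 1.53 in p53n, the lowest member in BB-p53n EZH2i and BB-p53n DMSO. Cebpb was at 5.07 CPM per kb in BB-p53n EZH2i and 2.80 in BB-p53n DMSO, above other low members, and at 0.37 in p53n, the lowest member there. The order of genes within a library also carries the composition and length dependence described above, which was not tested for levels.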

How the data were processed

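The values the authors deposited are raw counts per gene in 1 table, not normalized. Per the file headers, featureCounts 1.6.3 counted fragments over exons of the Ensembl release 108 annotation of GRCm39, with both ends mapped, a mapping quality of at least 20 and no strand option. Per the submitters' processing notes, Trimmomatic and Subread were used, with settings not given in the sources used here. Symbols came from a name table, with 8 older symbols matched by alias, and GC content from the longest GENCODE transcript of GRCm38, joined by gene identifier. Genes passing filterByExpr of edgeR 4.0.16 (R 4.3.3), 17001 in all, were scaled with TMM and fitted in 1 robust quasi-likelihood model of all 9 libraries, with group as its single factor. SE is the log2 fold change divided by the root of the F statistic. All p-values were Benjamini-Hochberg adjusted over the genes tested, with a threshold of 0.05, and groups overlap where their ranges of CPM do. The GC and length trend was fitted in each library with a smooth (mgcv 1.9.3) over genes with an average log2 CPM above 1 and removed through offsets. Genes without a GC value were left out of the fit with the trend removed, which tested 16652 genes. The members and the gene lists were chosen with earlier results of these data known. All 33 members are named, and in each further list the 2 called genes with the smallest adjusted p in each direction. Eif2ak1 was named outside this rule, beside the kinase genes among the members. Libraries of a group differed by more than sampling noise (median chi-square per gene 1.39 to 4.22), and counts carry no molecular identifiers. The main fit was tried on simulated counts with known fold changes, but the trend removal and the promoter search were not. Alternatives were other scalings (DESeq2 size factors, upper quartile), the DESeq2 1.42.0 test, other filters and other sets of libraries or genes.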

Additional observations from a re-analysis of the deposited data

How the results depend on the processing

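Leaving out each library in turn left 28 to 29 members called for PDGF-BB (30 with all libraries) and 27 to 28 for the inhibitor (28 with all), and the counts of ATF4 targets (14 to 14 higher and 2 to 2 lower; 10 to 10 and 3 to 3) and of ER chaperone and degradation genes (6 to 6 and 1 to 1; 2 to 2 and 6 to 6) did not move. With all libraries, 69.3% of all genes tested were called for PDGF-BB and 72.9% for the inhibitor. For PDGF-BB, Atf6 was not called without any single library (adjusted p 0.13 to 0.55), and Ern1 without p53n replicate 2 (0.065) or BB-p53n DMSO replicate 2 (0.077) or 3 (0.056). For the inhibitor, Ppp1r15b was called only with all libraries or without BB-p53n DMSO replicate 1 (adjusted p 0.052 to 0.17 in the other 5). Uncalled values changed sign among these fits for Calr (-0.126 to 0.033) and Eif2ak4 (-0.013 to 0.15) under PDGF-BB and for Ddit3 (-0.07 to 0.135) under the inhibitor.

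Removal of the GC and length trend moved the ER chaperone and degradation genes to 2 lower, against 1, for PDGF-BB, and to 1 higher and 3 lower, against 2 and 6, for the inhibitor. For the inhibitor it turned Atf4 (-0.303), Atf3 (-0.26), Slc7a11 (0.946), Ddit4 (-0.37), Vldlr (0.206) and Edem1 (0.074), and for PDGF-BB the uncalled Sel1l (-0.022) and Eif2ak4 (-0.135). Of the 33 members, 28 kept direction and side of the threshold for PDGF-BB and 16 for the inhibitor; the cause was not tested. Replicate numbers did not pair the libraries for PDGF-BB (correlations of same-numbered deviations from -0.161 to 0.001). For the inhibitor they did so in part: replicates 1 (0.395) and 2 (0.306) matched their own number best, and replicate 3 (-0.058) did not. With a replicate block, Atf6 for PDGF-BB (adjusted p = 0.061) and Ppp1r15b for the inhibitor (0.055) lost their calls, and no other call changed. The replicate block with the trend removed gave the same 2 lower, and 1 higher and 3 lower, with Atf4 at -0.303, Atf3 at -0.249, Slc7a11 at 0.947, Ddit4 at -0.377, Vldlr at 0.206, Edem1 at 0.073, Sel1l at -0.024 and Eif2ak4 at -0.136.

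Upper quartile scaling shifted the median of all genes for PDGF-BB to -0.163, against -0.016, with 4930 genes higher and 6967 lower, against 6008 and 5772. The ATF4 targets then had 13 higher and 2 lower (median 1.22), Calr joined the lower genes (2 lower, against 1), Sesn2 (adjusted p = 0.073) and Ern1 lost their calls, and Sel1l (-0.026) and Eif2ak4 (-0.107) changed sign. Ern1 was also not called with the DESeq2 test (0.056) or with at least 1 CPM in 3 libraries (0.065), where Eif2ak4 had -0.002. Ddit3 and Slc7a1, uncalled for the inhibitor, had -0.055 and -0.036 with no filter on low counts, -0.043 and -0.021 with only the 6 libraries compared, and -0.041 and -0.019 without chromosomes X, Y and MT, and Ern1 was called lower in these 3 fits. Protein sequences were not analysed here. Depth limits Cebpb, Atf3 and Nupr1, with under 10 CPM in each library.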
